A study of Mus musculus with 10 samples.

Results

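The nuclear-encoded genes of the mitochondrial respiratory chain were followed across 10 RNA libraries of mouse bone marrow cells. The genes were chosen by symbol: protein-coding mouse genes that start with Nduf (complex I), Uqcr (complex III), Atp5 (complex V) or Cox4 to Cox8 (complex IV), together with Sdha, Sdhb, Sdhc and Sdhd (complex II) and Cyc1 (complex III). Of the 47311 genes in the data 95 met that rule, and 88 of these had a mean of at least 5 TPM (a length-scaled share of all transcripts) over the 10 libraries and were kept. The rule itself uses measured RNA levels only through that minimum, but the group of genes was picked for description with earlier results of these data known. Of the 88, 79 encode subunits; the other 9 share only the prefix, namely the complex I assembly factors Ndufaf1 to Ndufaf8 and Atp5s, known as coupling factor B.

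The starting cells were bone marrow cells without lineage markers and with the receptor Kit, the surface phenotype of stem and progenitor cells. They carried full-length ASXL2 (2 libraries), mutant 1, mutant 2 or mutant 3 of ASXL2 (2 libraries each) or an empty vector (2 libraries). ASXL2 is a nuclear protein known to work with the chromatin enzyme BAP1. All cells, controls included, were sorted for GFP, expanded, and grown with serum and 3 mouse growth factors, SCF, IL3 and IL6. The sources used here do not give the mutations, the promoter of the vector, or the strain, age and number of donor mice, so the replicates may share animals or cultures, and p-values measure only the spread between these libraries.

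The labels also give each library a batch, numbered like the replicate, without saying whether it was a culture, an extraction or a sequencing run. The deposited data carry a batch in their names as well, and for 2 of the 10 libraries, replicate 2 of mutant 1 and replicate 1 of mutant 3, it is not the batch of the label. The batch of the deposited names is used throughout unless stated. By it, batch 2 holds full-length replicate 2, mutant 2 replicate 2, both mutant 3 libraries and empty vector replicate 2, and batch 1 holds full-length replicate 1, both mutant 1 libraries, mutant 2 replicate 1 and empty vector replicate 1. Mutant numbers are those of the labels throughout, so by them mutant 1 is in batch 1 only and mutant 3 in batch 2 only. By the mutant numbers of the deposited names, each batch holds mutants 1, 2 and 3. Since 4 mutant libraries carry another mutant number in the deposited names than in their labels, the 6 mutant libraries were pooled.

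The libraries held 52422686 to 79320702 estimated counts. Asxl2 reached 790.2 to 1892 CPM (a share of the library's counts, scaled by TMM factors) in the 8 libraries with a construct, against 107.4 and 110.9 CPM in the empty vector libraries. Several mast cell genes were high in every library, among them the mast cell carboxypeptidase Cpa3 at 19390 to 27100 TPM. Others were low, among them Tpsab1 at 0.1548 to 1.814 TPM. The progenitor phenotype of the sort therefore describes the cells put into culture. In bulk RNA, fewer cells of a type and less RNA per cell cannot be told apart.

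The respiratory chain moves electrons from NADH (complex I) and succinate (complex II) through ubiquinone, complex III and cytochrome c to oxygen at complex IV, and complex V, the ATP synthase, uses the resulting proton gradient to make ATP. The nucleus encodes most subunits; the mitochondrial genome encodes a few hydrophobic ones, which are not analysed here. Nuclear respiratory factor NRF1, the ETS-family factor GABPA (NRF2) and YY1 are known to bind promoters of many of these nuclear genes.

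Promoters are shown as a description of the genes, with the NRF1 motif marked because it was the most frequent of those searched. RefSeq promoters (GRCm38.p6) matched 74 of the 88 genes. The NRF1 motif (GCGC, then any base and T, then GCGC, or the reverse complement) stood in 19 of the 74 (25.7%), against 5.19% of the promoters of all 27025 genes in the table and 11% of those of the 10565 protein-coding genes that entered the test. The YY1 motif AAGATGGC stood in 11 of the 74 (14.9%), against 5.14% of the tested protein-coding genes. The ETS motif CCGGAAGT stood in 5 of the 74 (6.76%), against 8.7% of the tested protein-coding genes. Both strands were searched, and a match is only a run of letters in this window. Of the 66 matched genes that were higher in batch 2, 17 held the NRF1 motif, 10 the YY1 motif and 4 the ETS motif. These shares are near those over all 74 matched genes. A link between the motifs and the batch difference was not tested. The first 6 sequences below hold the NRF1 motif, in capitals, and the last 2 hold none; they belong to Atp5g1, which had the smallest p between the batches, and to Cox7a2l, the gene called lower in batch 2.
Sdhd (chr9:50603894-50603953, minus strand, GRCm38.p6, 104 to 45 bases before the start): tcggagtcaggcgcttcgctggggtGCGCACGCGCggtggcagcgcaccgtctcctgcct
Ndufa11 (chr17:56717677-56717736, plus strand, GRCm38.p6, 85 to 26 bases before the start): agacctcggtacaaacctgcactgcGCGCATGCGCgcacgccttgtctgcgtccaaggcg
Ndufa5 (chr6:24527682-24527741, minus strand, GRCm38.p6, 215 to 156 bases before the start): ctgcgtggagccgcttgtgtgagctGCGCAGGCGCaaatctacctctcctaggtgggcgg
Cox6a1 (chr5:115349086-115349145, minus strand, GRCm38.p6, 187 to 128 bases before the start): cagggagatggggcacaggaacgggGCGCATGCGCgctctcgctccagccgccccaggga
Ndufs5 (chr4:123718250-123718309, minus strand, GRCm38.p6, 123 to 64 bases before the start): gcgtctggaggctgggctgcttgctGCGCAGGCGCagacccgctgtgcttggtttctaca
Ndufa8 (chr2:36049339-36049393, minus strand, GRCm38.p6, 55 to 1 base before the start): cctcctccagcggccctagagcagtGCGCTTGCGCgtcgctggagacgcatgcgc
Atp5g1 (chr11:96075632-96075831, minus strand, GRCm38.p6, 200 to 1 base before the start): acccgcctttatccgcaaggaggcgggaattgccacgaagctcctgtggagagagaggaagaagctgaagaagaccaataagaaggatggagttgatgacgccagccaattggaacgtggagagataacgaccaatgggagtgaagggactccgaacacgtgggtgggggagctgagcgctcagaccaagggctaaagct
Cox7a2l (chr17:83514334-83514533, minus strand, GRCm38.p6, 200 to 1 base before the start): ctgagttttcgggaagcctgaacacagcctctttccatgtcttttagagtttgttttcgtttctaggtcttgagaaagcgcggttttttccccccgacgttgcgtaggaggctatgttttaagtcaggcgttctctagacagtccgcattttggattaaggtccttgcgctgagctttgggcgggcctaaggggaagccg

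Levels were compared between genes in TPM. The kept genes spanned 7.053 TPM (Ndufaf6, an assembly factor of complex I) to 599.1 TPM (Atp5b, the catalytic beta subunit of the ATP synthase) as means over the 10 libraries, with a median of 114.2 TPM. Median levels differed between the complexes, at 75.25 TPM for the 45 complex I genes, 87.91 TPM for the 4 complex II genes, 159.9 TPM for the 9 complex III genes, 259 TPM for the 13 complex IV genes and 222.1 TPM for the 17 complex V genes. Within complex I, Ndufa6 was highest at 278.4 TPM. Complex II spanned the narrowest range, with Sdhd at 107.1 TPM and Sdhc at 69.39 TPM. In complex III the hinge protein Uqcrh led at 368.2 TPM and the Rieske iron-sulfur protein Uqcrfs1 was lowest at 69.58 TPM. In complex IV Cox8a led at 531.6 TPM.

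**Figure D1:**
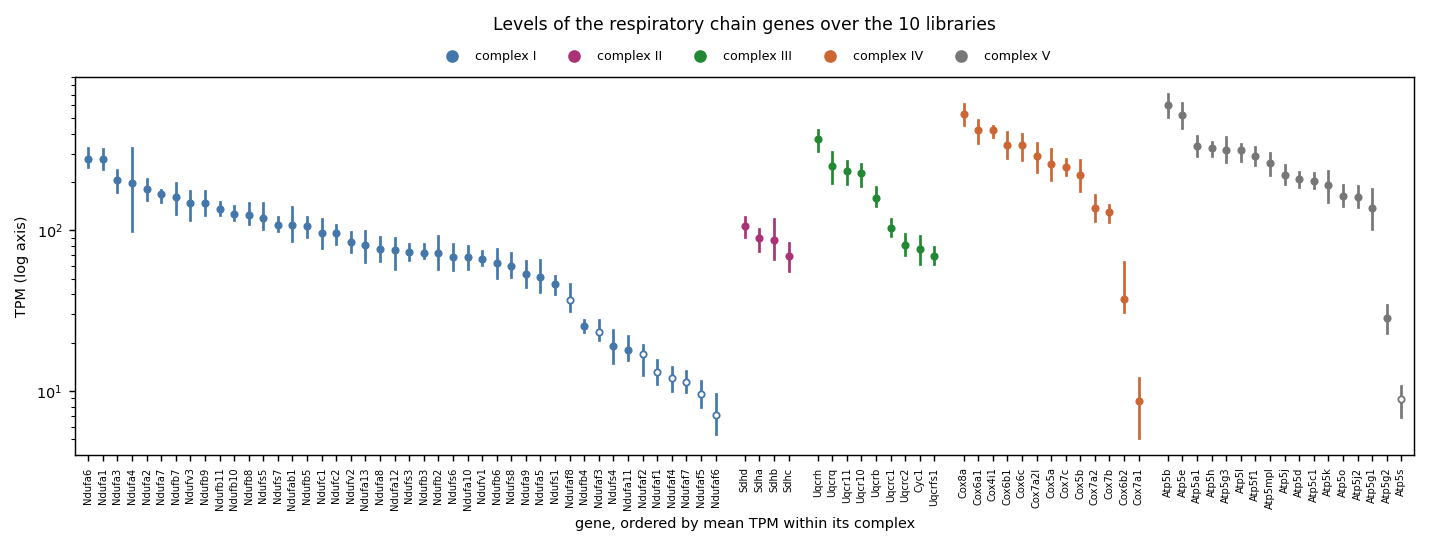
Mean TPM of the 88 genes, 1 of them not drawn, over the 10 libraries (points, log axis), with the lowest and the highest library as the line, ordered within each complex; open circles mark the 9 genes that are not subunits. Complex I reaches from 7.053 to 278.4 TPM, and the lines of most neighbouring genes overlap.

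The isoforms of tissues other than blood were low or near 0. Ndufa4l2, a hypoxia-induced relative of Ndufa4, averaged 0.257 TPM, the muscle isoform Cox6a2 averaged 0.301 TPM, and Cox4i2, known from lung and hypoxia, averaged 0.164 TPM, against 420.6 TPM for its common counterpart Cox4i1. Cox8b, Cox8c, Cox7b2 and a further gene identifier with the symbol Atp5o were lower still, at 0.044 TPM or less, and were not tested. Of the kept isoforms, the muscle form Cox7a1 (8.634 TPM) and the testis form Cox6b2 (37.18 TPM) were the lowest subunits of complex IV. The 3 genes for the identical c subunit of the ATP synthase differed in level, at 317.6 TPM for Atp5g3, 137.4 TPM for Atp5g1 and 28.63 TPM for Atp5g2. Ndufa4, named for complex I but known as a component of complex IV in mammals, varied most between libraries, with a coefficient of variation of 40.2%, against 5.28% for Cox4i1.

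The first comparison asks how the batches of the deposited names differ. Respiratory chain genes were higher in batch 2 almost without exception: at an adjusted p under 0.05, 79 of the 88 were higher and 1 was lower, while 26.6% of all 17810 genes tested were higher and 25.9% were lower (quasi-likelihood test of edgeR, p adjusted after Benjamini and Hochberg over all genes). On the TPM scale 9 of these 80 called genes changed sign. All 5 batch 2 libraries lay above all 5 batch 1 libraries for 73 of the 88 genes in CPM (83%), against 15.3% of all genes tested, and none lay wholly below, against 14.5% of all genes tested. The median log2 fold change of the 88 genes, batch 2 over batch 1, was 0.33, against -0.04 over all genes tested.

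**Figure D2:**
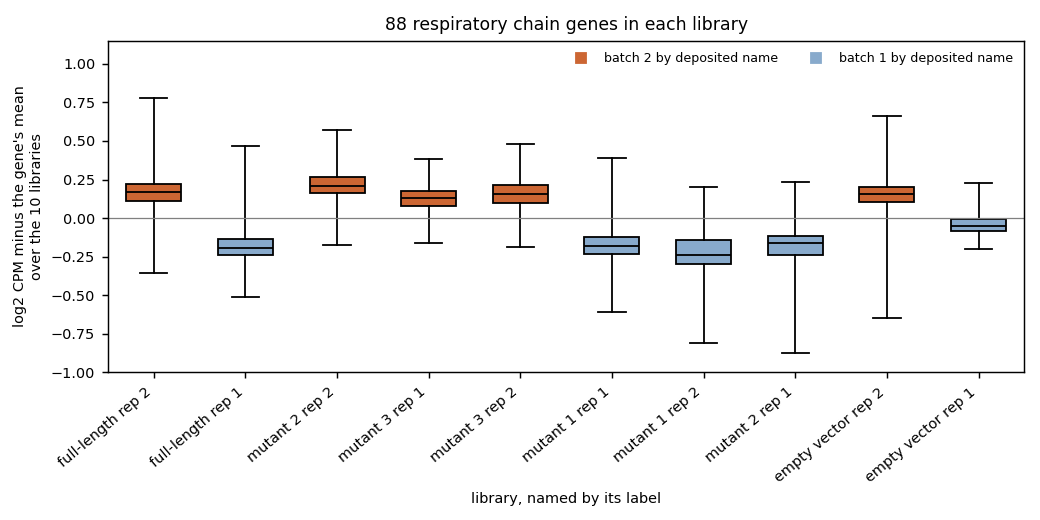
For each library, the log2 CPM of the 88 genes minus each gene's mean over the 10 libraries; boxes give the quartiles, the line the median, and whiskers the whole range. The 5 batch 2 libraries have medians of 0.128 to 0.21 and the 5 batch 1 libraries medians of -0.239 to -0.0482, with empty vector replicate 1 the highest of batch 1.

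Most of the 88 genes were higher in batch 2 in each class of cells. In the full-length cells 82 of the 88 genes were higher in the batch 2 library, with a median log2 difference of 0.355. In the mutant cells 84 were higher on average in batch 2, with a median of 0.36. In the empty vector cells 85 were higher, with a smaller median of 0.205. The shares over all genes tested were 47.6, 46.5 and 47.7%, in the same order. The 2 libraries whose batch is in doubt lay with their deposited name: the median of the 88 genes was 0.128 in mutant 3 replicate 1, named batch 2, and -0.239 in mutant 1 replicate 2, named batch 1. Without these 2 libraries 79 genes were higher and 1 was lower (25.8 and 21.2% of 17551 genes), the lower one now being Cox7a1 and no longer Cox7a2l. Without empty vector replicate 1, the batch 1 library with the highest levels, all 80 calls held. With the batch of the labels in the fit instead, no gene passed by edgeR. In that fit 14 of the 88 genes and 1555 of all 17810 genes had an unadjusted p under 0.05.

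Atp5g1 (chr11:96068852-96075670, minus strand, mm10), the c subunit gene whose upstream sequence is printed above, had the smallest p. In batch 2 it had 71.7 CPM with full-length ASXL2, 73.8, 70.3 and 73.2 CPM with the mutants and 79.4 CPM with the empty vector, against 45.6, 44.3, 40.9, 42.5 and 55.7 CPM in batch 1 in the same order of classes. Every batch 2 library was above every batch 1 library, and the empty vector library was the highest within each batch. The log2 fold change was 0.69 (SE 0.046, adjusted p = 4.1e-06, quasi-likelihood test of edgeR, Benjamini-Hochberg adjustment). The other genes of the c subunit gave different values: Atp5g3 had a log2 fold change of 0.38 (adjusted p = 0.0001262) and Atp5g2 one of 0.13 that did not pass (adjusted p = 0.2521).

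Ndufa4 (chr6:11900292-11907497, minus strand, mm10) had the largest fold change of the 88. In batch 2 it had 95.4 CPM with full-length ASXL2, 83.7, 61.0 and 78.5 CPM with the mutants and 89.0 CPM with the empty vector, against 39.5, 36.8, 32.1, 30.6 and 65.8 CPM in batch 1. The batches overlapped, because empty vector replicate 1 in batch 1 was above mutant 3 replicate 1 in batch 2. The log2 fold change was 1.04 (SE 0.15, adjusted p = 0.0007036, edgeR). Both of its main transcripts followed the gene: Ndufa4-205 (610 bases) had 211.5 TPM in full-length replicate 2 and 193.4 TPM in empty vector replicate 2, against 84.04 TPM in full-length replicate 1 and 166.3 TPM in empty vector replicate 1.

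Counting Ndufa4 with complex I, as its name does, both kinds of complex I subunit held mostly higher genes. Of the 7 core subunits, which carry the flavin and iron-sulfur clusters or the quinone site, 5 were higher and none lower, and of the 30 accessory subunits 28 were higher and none lower. The iron-sulfur core subunit Ndufs8 averaged 43.3 ± 1.5 CPM in batch 2 and 32.5 ± 1.6 CPM in batch 1 (SD, n = 5 each). After Ndufa4, the accessory subunits with the largest log2 fold changes were Ndufa5 (0.54), Ndufs4 (0.51), Ndufb6 (0.50) and Ndufa12 (0.48). Ndufa9, an accessory subunit at the joint of the membrane and matrix arms, had 60.5 CPM with full-length ASXL2, 60.9, 58.0 and 58.7 CPM with the mutants and 65.4 CPM with the empty vector in batch 2, against 44.7, 45.4, 43.9, 45.0 and 51.5 CPM in batch 1. Its batches did not overlap (log2 fold change 0.40, SE 0.033, adjusted p = 1.011e-05, edgeR). The core subunit Ndufs7 and the accessory subunits Ndufv3 and Ndufa6 did not pass, with log2 fold changes of 0.06, -0.04 and -0.06.

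**Figure D3:**
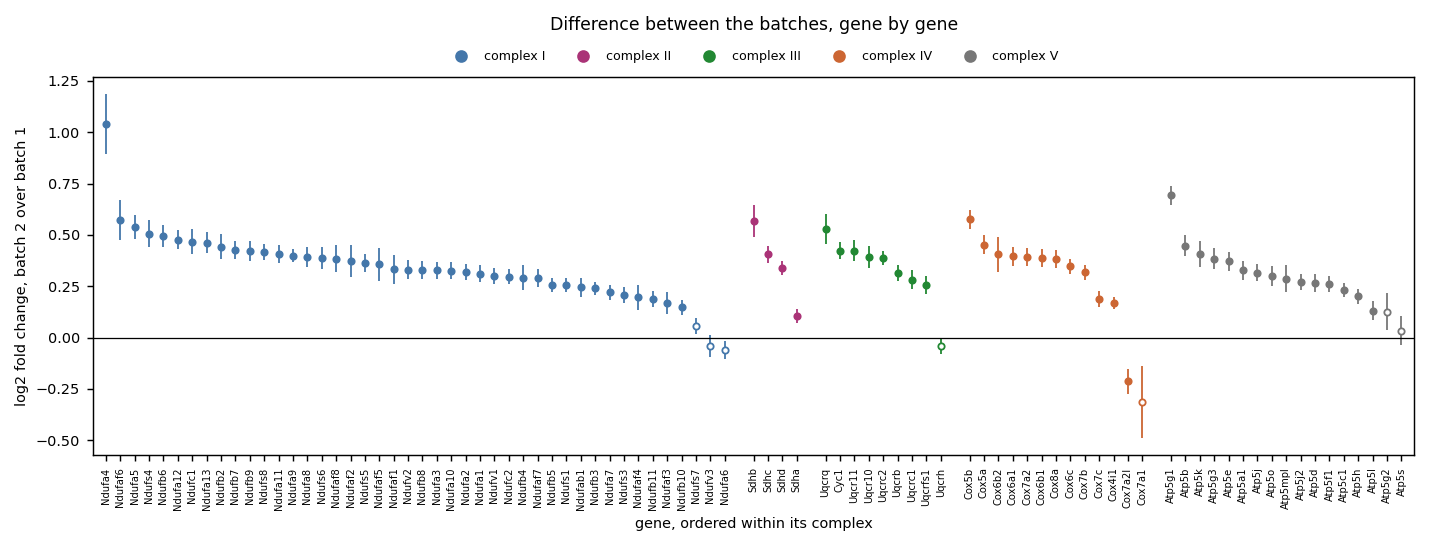
Log2 fold change of the 88 genes, 1 of them not drawn, batch 2 over batch 1, from counts (points), with the standard error as the line; filled points passed an adjusted p under 0.05 and open points did not. Of the 88 genes 83 lie above 0, Ndufa4 is highest at 1.04, and Cox7a2l at -0.21 is the filled point below 0; on the TPM scale 70 of the 88 lie above 0.

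All 4 complex II genes were higher in batch 2. The iron-sulfur subunit Sdhb had the largest difference, with 87.7 CPM with full-length ASXL2, 85.9, 77.2 and 77.0 CPM with the mutants and 73.2 CPM with the empty vector in batch 2, against 52.5, 53.8, 47.6, 53.4 and 63.9 CPM in batch 1, and no overlap between the batches (log2 fold change 0.57, SE 0.077, adjusted p = 0.0002494, edgeR). The membrane anchors Sdhc and Sdhd had log2 fold changes of 0.41 and 0.34. The flavoprotein Sdha differed least, with 173.4 to 180.6 CPM in batch 2, against 158.9 to 170.5 CPM in batch 1 (log2 fold change 0.10, adjusted p = 0.02223, edgeR), and it lay below 0 on the TPM scale. Its call was lost with 5 groups, with a filter of 1 CPM in at least 5 libraries, with protein-coding transcripts only and without mutant 1 replicate 2.

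In complex III, 8 of the 9 genes were higher. The core protein Uqcrc2 had 122.8 CPM with full-length ASXL2, 124.1, 118.1 and 122.5 CPM with the mutants and 122.2 CPM with the empty vector in batch 2, against 94.1, 90.6, 90.5, 90.3 and 101.4 CPM in batch 1 (log2 fold change 0.39, SE 0.035, adjusted p = 1.907e-05, edgeR). Its batches did not overlap, and neither did those of Cyc1, cytochrome c1, which had 68.8 to 72.7 CPM in batch 2, against 50.9 to 62.2 CPM in batch 1. Uqcrh, the most abundant complex III transcript, was the gene that did not pass (log2 fold change -0.04, adjusted p = 0.3954, edgeR).

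In complex IV, 11 of the 13 genes were higher and 1 was lower. Cox5b had 113.7 CPM with full-length ASXL2, 122.0, 109.6 and 112.3 CPM with the mutants and 112.3 CPM with the empty vector in batch 2, against 76.1, 73.5, 72.6, 75.2 and 85.3 CPM in batch 1, with no overlap (log2 fold change 0.58, SE 0.046, adjusted p = 9.373e-06, edgeR). Cox4i1, the common isoform of the largest nuclear-encoded subunit, moved less, with 194.8 to 203.9 CPM in batch 2, against 173.3 to 183.6 CPM in batch 1 (log2 fold change 0.17, adjusted p = 0.0008293, edgeR), and lay below 0 on the TPM scale.

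Cox7a2l went the other way. This gene, known as SCAF1, encodes a relative of Cox7a2 that joins complexes III and IV into supercomplexes. It had 180.1 CPM with full-length ASXL2, 190.0, 192.8 and 180.6 CPM with the mutants and 215.0 CPM with the empty vector in batch 2, against 220.5, 211.9, 236.6, 237.8 and 202.3 CPM in batch 1. The constructs were lower in batch 2 without overlap, but of the empty vector libraries the batch 2 one was higher. Over all libraries the log2 fold change was -0.21 (SE 0.061, adjusted p = 0.01374, edgeR). The call was lost without full-length replicate 1 and without full-length replicate 2. It was also lost with 5 groups by label and without the 2 libraries of doubtful batch. Its paralog Cox7a2 was higher in batch 2 with a log2 fold change of 0.39. Cox7a1 was measured at 0.963 to 1.90 CPM in batch 2, against 1.36 to 2.09 CPM in batch 1, and its log2 fold change of -0.31 did not pass (adjusted p = 0.1523, edgeR).

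In complex V, 15 of the 16 subunit genes were higher. Atp5b averaged 792.0 ± 23.2 CPM in batch 2 and 582.6 ± 53.8 CPM in batch 1 (SD, n = 5 each), without overlap (log2 fold change 0.45, adjusted p = 5.114e-05, edgeR). The catalytic partner Atp5a1 had a log2 fold change of 0.33, the oligomycin-sensitivity subunit Atp5o one of 0.30 and the membrane subunit Atp5l one of 0.13, which was lost under several alternatives. Of the 9 genes that are not subunits, 8 were higher, led by Ndufaf6 (0.57), and Atp5s did not pass (0.03). Atp5l and Uqcrh each have 2 pseudogenes named after them, and Ndufab1, Atp5c1 and Atp5k have 1 each. The authors' counting could have shared reads with these copies, so the values of these genes are uncertain, and no strand setting is given. Pseudogenes under other names were not counted.

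**Figure D4:**
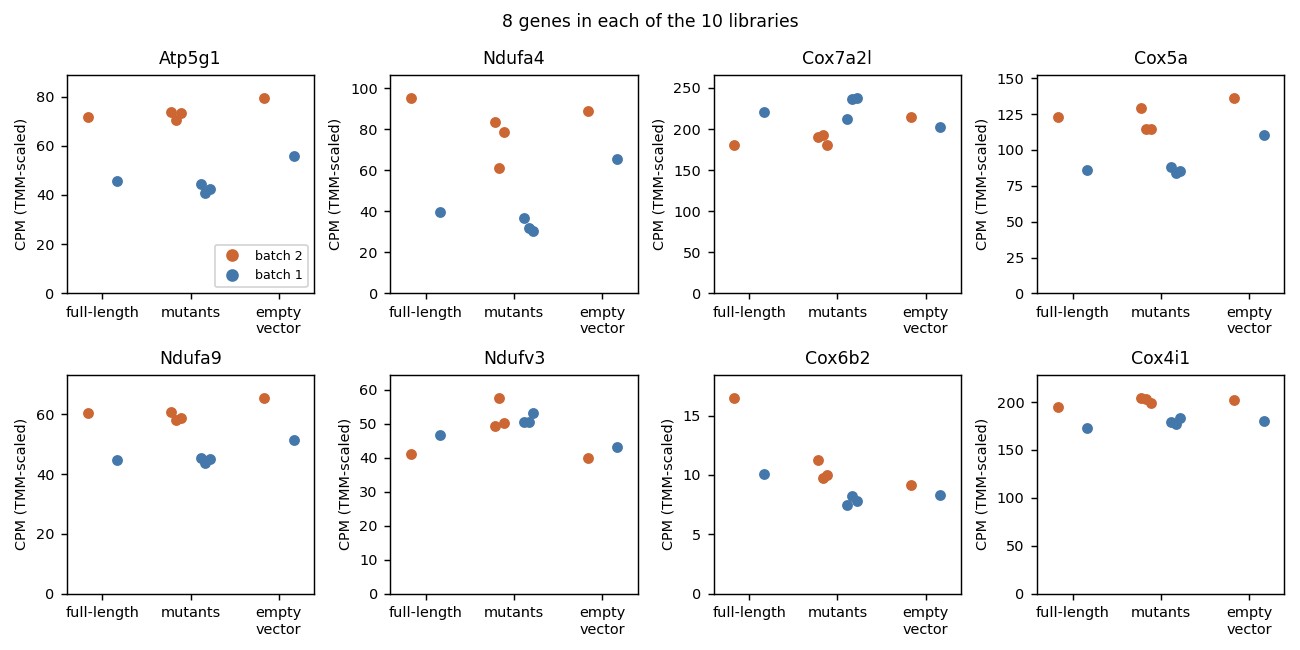
TMM-scaled CPM of 8 genes in each of the 10 libraries, by class (x axis) and batch (colour). In Atp5g1, Cox5a, Ndufa9 and Cox4i1 every batch 2 point is above every batch 1 point, Cox7a2l is lower in batch 2 only in cells with a construct, and Cox6b2 is highest in full-length replicate 2 at 16.45 CPM.

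On the TPM scale the difference was smaller. The summed level of the 88 genes was 12925 to 15619 TPM in batch 2, against 11847 to 14534 TPM in batch 1, so the batches overlapped. With limma on log2(TPM + 1), a scale that understates the change of low genes, 37 of the 88 genes were higher and 5 lower, against 7.74% and 33.1% of 13033 genes. The 5 lower ones were Cox7a1, Cox7a2l, Ndufa6, Ndufv3 and Uqcrh. The median of the 88 was 0.16 on that scale and that of all genes was -0.13, and 81 of the 88 lay above that median of all genes. The transcript of Mir6236 alone took 38966 to 109219 TPM, and without it the sums were 14510 to 16421 TPM in batch 2, against 13245 to 15124 TPM in batch 1.

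The kinds of transcript behind the counts also moved with the batch. Transcripts annotated with a retained intron took 1.584 to 1.941% of the counts of the 88 genes in batch 2, against 2.603 to 2.933% in batch 1, and over all protein-coding genes they took 2.328 to 2.798% in batch 2, against 3.559 to 3.922% in batch 1. With protein-coding transcripts alone 77 of the 80 called genes were still called, at a median of 0.278, against 0.329 with all transcripts. The part of the transcript kinds in the result was not tested. Across the 88 genes Spearman's rho between the length of the main transcript and the log2 fold change was -0.102. This is a description over genes measured in the same libraries, and the part of length was not tested. Of the genes with a main transcript under 1000 bases 53 of 59 were higher, and of the longer ones 26 of 29 were higher and 1 was lower.

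In the test on counts, other mitochondrial genes moved with the respiratory chain. Over all genes tested, 26.6% were higher and 25.9% lower. Of 21 genes for protein import into mitochondria 20 were higher and none lower in batch 2 (median log2 fold change 0.41), with the chaperone Hspa9 (mortalin) at 0.65 and the receptor Tomm70a at 0.52. Of 78 genes of the mitochondrial ribosome 67 were higher and 2 lower, with Mrpl3 at 0.35. Of 19 tricarboxylic acid cycle genes 16 were higher and none lower, with Idh2 at 0.51 and Fh1, the fumarase, at 0.40. Of 31 further assembly factors of the respiratory complexes 21 were higher and 1 lower, with Cox10, which makes heme for complex IV, at 0.47. Cytochrome c itself, Cycs, had a log2 fold change of 0.58 (adjusted p = 0.0002318, edgeR). In summed TPM the batches overlapped for each of these lists. The import genes had 1349 to 1623 TPM in batch 2, against 1170 to 1558 TPM in batch 1. The mitochondrial ribosome had 3200 to 3861 TPM, against 3054 to 3852 TPM. The tricarboxylic acid cycle had 1057 to 1345 TPM, against 1036 to 1268 TPM. The further assembly factors had 822 to 969 TPM, against 823.3 to 972.2 TPM.

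The known regulators moved less evenly in the counts. Their summed level was 380.2 to 448 TPM in batch 2, against 379.5 to 499.2 TPM in batch 1. That of the ribosome biogenesis and MYC target genes below was 1985 to 2648 TPM, against 1842 to 2654 TPM. Of 17 regulators of mitochondrial biogenesis 10 were higher and 1 lower, among them Tfam, the packaging factor of mitochondrial DNA (0.30), the GABPA partner Gabpb1 (0.30) and the coactivator Pprc1 (0.30). Outside mitochondria, 29 of 30 genes of ribosome biogenesis and MYC targets were higher and none lower, led by Odc1, which starts polyamine synthesis, at 0.81. Of 80 cytosolic ribosomal protein genes 21 were higher (26.2%) and 5 lower (6.25%), against 26.6 and 25.9% of all genes tested. The share that was higher was thus near that over all genes. Of 30 glycolysis and hypoxia genes 2 were higher and 13 lower, with pyruvate kinase Pkm at -0.67.

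**Figure D5:**
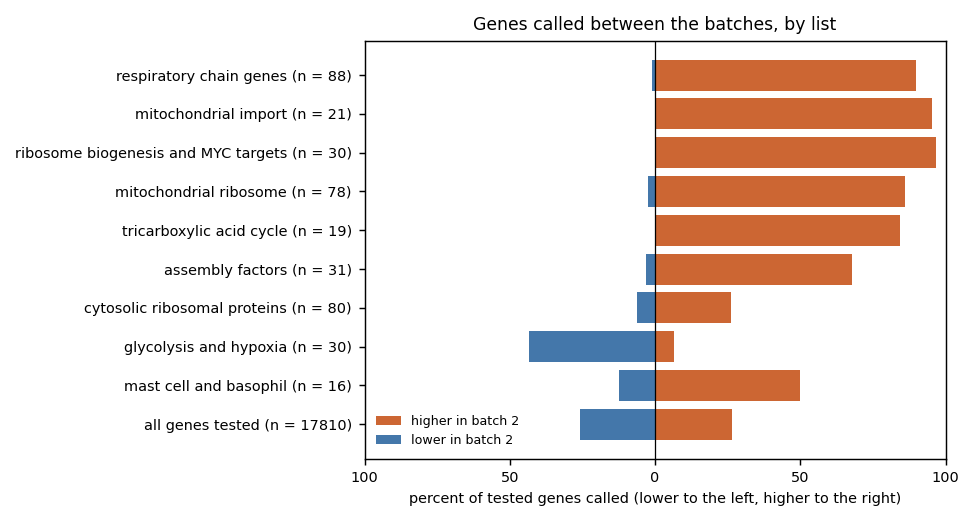
Percent of the tested genes of each list that were called higher (right) or lower (left) in batch 2, from counts at an adjusted p under 0.05. The respiratory chain genes stand at 89.8% higher and 1.14% lower, all genes tested at 26.6 and 25.9%; on the TPM scale the respiratory chain counts were 37 higher and 5 lower.

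Markers of other blood cells were set beside the batch result. The summed level of 10 neutrophil genes was 234.2 to 403.9 TPM in batch 2, against 6.313 to 68.21 TPM in batch 1. The granule protease Ctsg made up nearly all of that sum, at 233 to 403 TPM in batch 2, against 5.054 to 66.49 TPM in batch 1. Of the 4 tested genes, Ctsg was the 1 called (log2 fold change 4.09, adjusted p = 0.001147, edgeR). The others did not pass, with log2 fold changes of 0.36 for Mmp8, 0.09 for Mpo and -1.41 for Prtn3. Of the 10 genes, 8 had a mean under 1 TPM. Of the defining neutrophil genes, Elane stayed at or under 0.02593 TPM in batch 2 and 0.1648 TPM in batch 1, and Ltf and S100a8 were listed at 0 in all of batch 2 and at up to 0.1803 and 0.5896 TPM in batch 1. The sum of 6 megakaryocyte genes was 935.3 to 1132 TPM in batch 2, against 1286 to 1641 TPM in batch 1, and 3 of its 5 tested genes were lower; these were Itga2b, which made up nearly all of the sum, and the platelet chemokines Pf4, at 0 to 0.1887 TPM in batch 2, against 0.2678 to 8.847 TPM in batch 1 (adjusted p = 0.005262, edgeR), and Ppbp, at up to 0.01565 TPM in batch 2 and up to 7.191 TPM in batch 1 (adjusted p = 0.04911, edgeR). Of the 16 mast cell and basophil genes 8 were higher and 2 lower (50 and 12.5%, against 26.6 and 25.9% of all genes tested). The higher ones included the chymases Cma1 at 0.58 and Mcpt4 at 1.99, and also Mcpt8 at 1.82 and Prss34 at 1.43. The lower ones were Tph1, the enzyme that starts serotonin synthesis, at -0.15 and the IgE receptor subunit Ms4a2 at -0.17. The sum of 8 monocyte and macrophage genes was 30.54 to 67.5 TPM in batch 2, against 28.71 to 83.25 TPM in batch 1 (1 of 5 tested genes higher, Ly6c2). The sum of 7 erythroid genes was 18.51 to 26.01 TPM in batch 2, against 17.37 to 43.57 TPM in batch 1 (none of 4 called), and that of 5 lymphoid genes was 0.2739 to 0.6572 TPM in batch 2, against 0.4568 to 1.09 TPM in batch 1 (1 of 2 lower), with Cd3e at 0 in all of batch 2 and at most 0.02065 TPM in batch 1. Their part in the result was not tested.

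The second comparison asks whether full-length ASXL2 changed these genes within batches. Of the 88 genes 1 was higher and none lower than with the empty vector, against 3.85 and 1.22% of all genes tested (edgeR). An unadjusted p under 0.05 was found for 7 of the 88, against 3385 of all 17810 genes. The median log2 fold change was -0.07, with 77 of the 88 below 0 (87.5%), against -0.02 over all genes tested, with 53.8% below 0. Without empty vector replicate 1 the median of the 88 was 0.002, and without empty vector replicate 2 it was -0.12. The gene called was Cox6b2, at 10.1 and 16.45 CPM in full-length replicates 1 and 2, against 8.34 and 9.12 CPM with the empty vector (log2 fold change 0.57, SE 0.13, adjusted p = 0.0333, quasi-likelihood test of edgeR, Benjamini-Hochberg adjustment). Both full-length libraries were above both empty vector libraries. Without full-length replicate 2 the log2 fold change was 0.361 and the adjusted p was 0.364, and over all alternatives the adjusted p lay between 0.00239 and 0.53. In that library the transcript Cox6b2-201 (553 bases) reached 27.75 TPM, against 10.14 TPM in the empty vector library of the same batch.

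The third comparison sets the mutants against the empty vector. Of the 88 genes 1 was higher and 3 were lower, against 6.82 and 3.99% of all genes tested (edgeR). Unadjusted, 20 of the 88 had a p under 0.05, against 4506 of all 17810 genes. The median log2 fold change was -0.07, with 73 of the 88 below 0 (83%), against -0.01 over all genes tested, with 51.1% below 0. Without empty vector replicate 1 the median of the 88 was 0.003, and without empty vector replicate 2 it was -0.13. The lower genes were 1 each of complexes I, IV and V, and the higher gene belonged to complex I.

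Cox5a, a complex IV subunit, had 129.1, 114.8 and 114.4 CPM with the mutants, against 136.2 CPM with the empty vector, in batch 2, and 87.95, 83.6 and 84.96 CPM with the mutants, against 110.5 CPM with the empty vector, in batch 1. The mutants were below the empty vector library in both batches. The log2 fold change was -0.28 (SE 0.059, adjusted p = 0.01258, edgeR). Atp5g1 and Ndufa9, whose values per library are given above, were also below it in all 3 mutant libraries of each batch, with log2 fold changes of -0.26 (adjusted p = 0.01682) and -0.17 (adjusted p = 0.02339, edgeR). Ndufa4 had a log2 fold change of -0.65 that did not pass (adjusted p = 0.06221).

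The higher gene was Ndufv3, an accessory subunit near the NADH site. It had 49.4, 57.4 and 50.1 CPM with the mutants, against 39.7 CPM with the empty vector, in batch 2, and 50.3, 50.5 and 53.1 CPM with the mutants, against 43.1 CPM with the empty vector, in batch 1. All 6 mutant libraries were above both empty vector libraries (log2 fold change 0.32, SE 0.070, adjusted p = 0.01396, edgeR). The gene is known to make a short and a long protein. Its 485-base transcript Ndufv3-202 had 118.9 to 160.6 TPM in the mutant libraries, against 102.8 and 136 TPM in the empty vector libraries, and its 1537-base transcript Ndufv3-201 had 13.26 to 15.43 TPM in the mutant libraries, against 11.42 and 12.02 TPM in the empty vector libraries.

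These 4 calls rested on a single control library in each batch. Without empty vector replicate 1 none of the 88 genes was called, and all 4 lost their call, with adjusted p between 0.0834 and 0.324. The log2 fold changes were then 0.37 for Ndufv3, no smaller than with all libraries, and -0.19 for Cox5a, -0.15 for Atp5g1 and -0.14 for Ndufa9. Without empty vector replicate 2, 11 of the 88 were called, 1 higher and 10 lower, and of the 4 genes only Cox5a and Atp5g1 kept their call. With no batch in the fit none was called, and with the batch of the labels Ndufv3 alone was (adjusted p = 0.0493, edgeR).

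The fourth comparison, of the mutants with full-length ASXL2, found none of the 88 genes changed, against 0.185% of all genes higher and 0.213% lower (edgeR). At an unadjusted p under 0.05 there were 4 of the 88, against 2003 of all 17810 genes. The median log2 fold change of the 88 in the main edgeR fit was 0.002. DESeq2 called 1 of the 88. Cox6b2 had the smallest p of the genes described here, at 11.2, 9.70 and 9.96 CPM with the mutants, against 16.45 CPM with full-length ASXL2, in batch 2, and 7.47, 8.24 and 7.82 CPM with the mutants, against 10.1 CPM with full-length ASXL2, in batch 1. The mutants were below full-length in both batches, and the log2 fold change of -0.53 (SE 0.10) missed the threshold (adjusted p = 0.06646, edgeR). Cox6b2 was the gene DESeq2 called (adjusted p = 0.000783). By edgeR it passed with no filter on low counts (adjusted p = 0.0165) and without empty vector replicate 1 or 2 (adjusted p = 0.0391 and 0.0427), while without full-length replicate 2 its log2 fold change was -0.33 and its adjusted p was 1.

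Within batches, the counts of genes below the empty vector library were unequal. In batch 1, 72 of the 88 were below the empty vector library in all 4 construct libraries (81.8%, against 32.5% of all genes tested), and 6 were above it in all 4 (6.82%, against 29.7%). In batch 2, 14 of the 88 were below it in all 4 (15.9%, against 22.9%) and 14 were above it in all 4 (15.9%, against 23.8%). These counts within a batch share 1 empty vector library. By library, 79 of the 88 were below it in full-length replicate 1 and 76 to 80 in the 3 mutant libraries of batch 1, whereas in batch 2 the counts were 42 in full-length replicate 2 and 18, 59 and 45 in mutant 2 replicate 2, mutant 3 replicate 1 and mutant 3 replicate 2.

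For the mutants, the test of that difference between the batches did not pass for any of the 88 genes. The change from the empty vector, batch 2 minus batch 1, had a median of 0.156 over the 88 genes and of 0.018 over all genes. Before adjustment 16 of the 88 had a p under 0.05, against 1761 of all 17810 genes (edgeR). After adjustment 0% of all genes were called. Each batch holds 1 empty vector library, so the spread in this fit came from the mutant libraries. For full-length ASXL2 each batch holds 1 library of each class, and no result of that test is given.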

How the data were processed

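The deposited tables give an estimated count and a TPM value for each of 115088 transcripts in each library, in the columns that kallisto writes, per the file headers. The build mm10 and the tools kallisto and DESeq2 come from the submitters' processing notes; the sources used here give no version, index, trimming or strand setting. Reads that fit several transcripts are divided among them by kallisto, so counts of near-identical copies are uncertain.

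Here 114200 transcripts matched the GENCODE M21 annotation and were summed into 47311 genes; 888 did not match and were left out. Summed estimated counts were rounded to whole numbers. Totals of 52422686 to 79320702 gave 15624 to 17240 genes with at least 10 counts per library. The quasi-likelihood test of edgeR 4.0.16 (robust, TMM scaling, default filter of 10 counts, 17810 genes, R 4.3.3) used all 10 libraries in 1 fit with 3 classes (full-length, mutants, empty vector) and the batch of the deposited names. P-values were adjusted by Benjamini-Hochberg over all genes, with a threshold of 0.05. CPM values are TMM-scaled; differences within a batch used log2(CPM + 0.1). Alternatives were DESeq2 1.42.0, limma 3.58.1 on log2(TPM + 1) or log2(TPM + 0.1), other filters, batches and transcript sets, and leaving libraries out. The scripts were tested on simulated counts.

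The main fit blocked on the batch of the deposited names. The labels name the replicate number a batch, and a block on that number was an alternative. Between libraries with the same labelled number, the correlation of deviations from group means was 0.703 for full-length ASXL2 with the empty vector, 0.664 for mutant 2 with the empty vector and 0.763 for mutant 2 with full-length ASXL2. In the other 7 pairs of groups it lay between -0.238 and 0.0587.

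The genes of the respiratory chain and the other lists were chosen with earlier results of these data known. Genes were named by rule: those called, up to 12 with the smallest p per comparison, the 3 largest and 3 smallest fold changes between batches, the highest and lowest TPM of each complex, isoform pairs, complex II, and up to 3 per other list. The others named (Ndufs4, Ndufb6, Ndufa5, Atp5a1, Atp5o, Atp5l, Mcpt8, Prss34 and the genes that did not pass) were chosen after their values were seen. Ndufab1, Atp5c1 and Atp5k were named for their pseudogenes. For 1 respiratory chain gene, single values are not reported here; it is included in the counts and medians.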

Additional observations from a re-analysis of the deposited data

Results flagged for a closer look

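Single libraries far from the others were sought in each batch of 5 libraries and also among the 6 mutant libraries. Over these groupings there were 105 sets of values (genes named by rule and summaries per library). In all, 9 stood out, each of them within a batch and none among the pooled mutants. Chance marks about 1 in 20 such sets, and the sets share libraries.

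Of the 9, 7 were empty vector replicate 1, which was the highest library of batch 1. Cox5a had 110.5 CPM there, against 83.6 to 87.95 CPM in the other 4. Cox5b had 85.3 CPM there, against 72.61 to 76.11 CPM. Ndufa9 had 51.48 CPM there, against 43.9 to 45.44 CPM, and Cyc1 had 62.22 CPM, against 50.91 to 51.72 CPM. Ndufa4 had 65.79 CPM there, against 30.63 to 39.5 CPM, the widest gap of the 7. Atp5g3 had 137.7 CPM, against 114 to 117.4 CPM, and the assembly factor Ndufaf6 had 3.615 CPM, against 2.42 to 2.744 CPM.

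In batch 2, Cox6b2 had 16.45 CPM in full-length replicate 2, above 9.121 to 11.22 CPM in the other 4 libraries. Ndufa11, an accessory subunit of the membrane arm of complex I, had 38.19 CPM in mutant 3 replicate 1, below 41.48 to 42.1 CPM in the other 4.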

How the results depend on the processing

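Between the batches, 80 of the 88 genes and 9338 of all genes were called at a median of 0.329. With the replicate block by the labelled batch 0 genes and 0 of the 88 were called, at a median of 0.198. Limma on log2(TPM + 1) called 5321 genes and 42 of the 88 at a median of 0.162, and limma on log2(TPM + 0.1) called 5329 and 42 at 0.168. The median was 0.269 with a filter of 1 CPM in at least 5 libraries and 0.278 with protein-coding transcripts only. The median of the 88 minus that of all genes was 0.37, and 0.288 in TPM relative to the median of all genes, an alternative chosen after seeing the data. In full-length cells against the empty vector (903 genes, 1 of the 88) no replicate block gave 134 and 0, the labelled block 129 and 0, DESeq2 1523 and 2, limma on TPM 201 and 0 with a pseudocount of 1 and 233 and 0 with 0.1, and 0 of the 88 were called with 5 groups and without the 2 libraries of doubtful batch. For the mutants against the empty vector (1925 genes, 4 of the 88) no replicate block gave 311 and 0, the labelled block 335 and 1, and limma on TPM 573 and 0 at a median of -0.142 with a pseudocount of 1 and 591 and 1 at -0.146 with 0.1. For the mutants against full-length ASXL2 (71 genes, 0 of the 88) the counts were 0 genes by edgeR with no replicate block (720 at an unadjusted p under 0.05, 9 by limma on TPM), 1 with the labelled block, 491 and 1 of the 88 by DESeq2, 183 and 1 of the 88 with no filter, 9 and 6 by limma on TPM with pseudocounts of 1 and 0.1, and 136 without the 2 libraries. Leaving out each replicate in turn gave 8160 to 9105 genes, 77 to 81 of the 88 and medians of 0.308 to 0.387 between the batches; 285 to 1047 genes, 0 to 2 of the 88 and medians of -0.124 to 0.00249 for full-length cells against the empty vector; 494 to 2042 genes, 0 to 11 of the 88 and medians of -0.126 to 0.00315 for the mutants against the empty vector; and 2 to 111 genes, 0 to 1 of the 88 and medians of -0.0213 to 0.0168 for the mutants against full-length ASXL2. The causes were not tested. Estimated counts carry counting error and the sharing of reads among copies, and with 1 empty vector library in each batch the construct comparisons rest on 2 control libraries.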

Other observations

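Outside the respiratory chain, the constructs were accompanied by lower levels of many genes for making ribosomes. Of 30 genes of ribosome biogenesis and MYC targets, 10 were lower with full-length ASXL2 than with the empty vector and 21 were lower with the mutants, and none was higher, while over all genes tested 1.22% were lower and 3.85% higher with full-length ASXL2 and 3.99% were lower and 6.82% higher with the mutants (edgeR's quasi-likelihood test, adjusted over all genes). Of 80 cytosolic ribosomal protein genes, 34 were lower with full-length ASXL2 and 44 with the mutants, and none was higher. Of the 21 mitochondrial import genes 1 was lower with full-length ASXL2 and 5 with the mutants, and of the 78 genes of the mitochondrial ribosome none was lower with full-length ASXL2 and 5 were lower with the mutants, the last of these near the share over all genes. In the glycolysis and hypoxia list 2 of 30 genes were higher with full-length ASXL2 and 8 with the mutants, and none was lower. These comparisons share the empty vector libraries, 1 in each batch. The counts for these lists were not repeated with an empty vector library left out.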
